A study of Dorcoceras hygrometricum with 3 samples.

Results

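Between 1 library of hydrated Boea hygrometrica leaves and 1 of leaves at 10% relative water content (RWC), 2383 regions met the selection described here. The authors listed these regions as differing in methylation in that comparison, and no region listed at 70% RWC touched them. They were taken from 3093 distinct regions in the authors' comparison of hydrated with 10% RWC leaves by keeping each region that shared no base with any of the 2690 regions of the comparison of hydrated with 70% RWC leaves, and they lie in or beside 2804 genes. The 2 comparisons together hold 5783 distinct regions. The 10% RWC level was higher than the hydrated level in 1242 of the 2383 regions and lower in the other 1141, so 52.1% were higher, beside 55.9% of all 3093 regions of that comparison.

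The plant (labelled Dorcoceras hygrometricum) was grown in pots and kept hydrated, dried to 70% RWC (moderate dehydration) or dried to 10% RWC (desiccated), and leaf DNA of each state was bisulfite sequenced in 1 library. No genotype, agent, plant age, rehydrated state or number of pooled plants is given in the sources used here. The results below compare the hydrated library with the 10% RWC library, and the 70% RWC library serves only to remove regions and to give neighbouring values. With 1 library per condition there is no replicate check, no difference has a test, and "higher", "lower", "increase" and "decrease" describe these libraries only.

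Boea hygrometrica belongs to the resurrection plants, which tolerate drying of their vegetative tissue to an air-dry state and recover when watered. In plants, cytosines are methylated in CG, CHG and CHH contexts: dense methylation in all contexts marks transposons and repeats, which often lie beside genes, while many moderately expressed genes carry CG methylation inside their transcribed part. Methylation is copied after replication by maintenance methyltransferases, set anew by enzymes that small RNAs guide, and removed by DNA glycosylases. The deposited levels do not separate the contexts, and marker genes of leaf tissue cannot be checked in genomic DNA.

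Levels are fractions between 0 and 1, each the authors' mean over a region in a library. Where both levels are above 0, their ratio is at least 1.86 in these regions. Sorting by direction therefore itself puts low hydrated levels among higher regions and larger ones among lower regions. Regions that were higher at 10% RWC had a median level of 0.09 in the hydrated library and 0.27 at 10% RWC. Their median difference was 0.17 (quartiles 0.13 and 0.25). Regions that were lower had a median of 0.40 in the hydrated library and 0.16 at 10% RWC. Their median difference was -0.24 (quartiles -0.32 and -0.16). The higher regions were thus slightly more numerous and the lower regions had the larger median difference of levels. As ratios of levels with 0.01 added the order was opposite, with medians of 1.37 for higher and -1.19 for lower regions on the log2 scale.

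**Figure D1:**
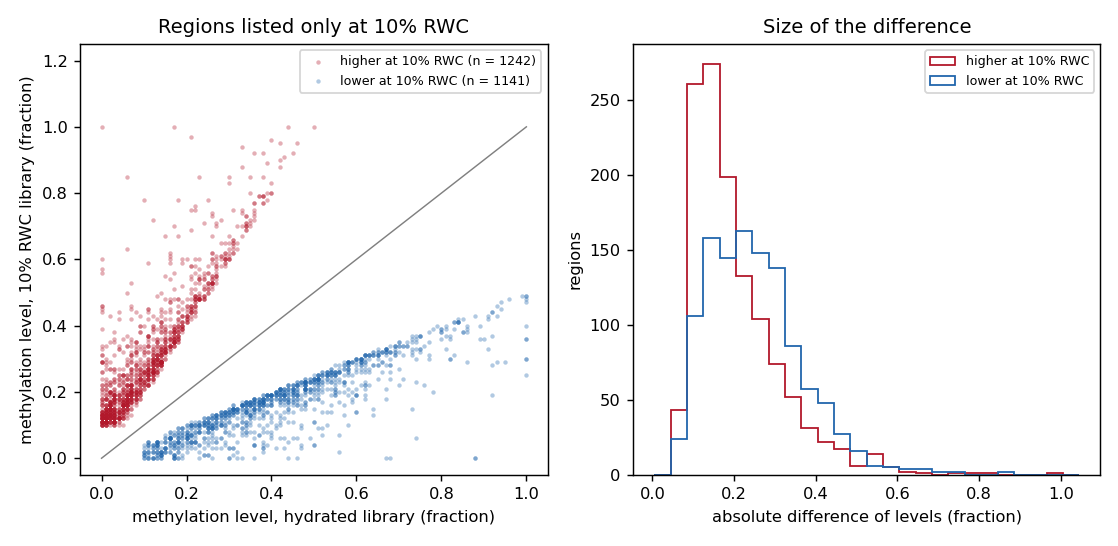
The left panel plots each of the 2383 regions by its methylation level (fraction) in the hydrated library on the x axis and in the 10% RWC library on the y axis, with the line of equal levels in grey. The right panel counts regions by the absolute difference. Higher regions (red) gather at low hydrated levels, lower regions (blue) spread to hydrated levels of 1, and the empty wedge around the line holds ratios below 1.86, which the deposited lists do not contain.

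The share of regions with a higher level at 10% RWC had an exact 95% interval of 50.1 to 54.1%, which covers the counting of regions only. The majority depended on the size of the difference. At a difference of 0.2 or more, 507 of 1246 regions were higher, or 40.7%, beside 750 of 1634 (45.9%) in the whole comparison, where 24.2% of all listed regions were higher and 28.6% lower by that much. At 0.3 or more, 208 of 568 were higher, or 36.6%, beside 299 of 731 (40.9%) in the whole comparison, which are 9.67% of all listed regions with 14% lower by that much. The 65 regions past 0.5 held 30 higher and 35 lower (46.2% higher), beside 43 higher and 40 lower (51.8%) in the whole comparison, or 1.39% and 1.29% of all listed regions.

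The largest increases lay mostly at genes that carry no KEGG description, as do 1402 of all 2804 genes (50%), 887 of them without a Gene Ontology term too. The level was 0 in the hydrated library and 1 at 10% RWC in a region of 219 bp on scaffold2033 (187601 to 187819), downstream of Bhs2033_017 and 1525 bp from it. (The version suffix shared by all gene identifiers is left out.) Upstream of Bhs2002_010 the level was 0.17 in the hydrated library and 1 at 10% RWC, and inside Bhs1547_001 it was 0.06 and 0.85. The largest decreases were of like size and also mostly at genes without a KEGG description. The level was 0.88 in the hydrated library and 0 at 10% RWC both downstream of Bhs200_093 (scaffold200, 1300169 to 1300446) and upstream of Bhs422_025 (scaffold422, 172272 to 172477). Of the 20 largest differences, 11 were in regions of 250 bp or less, a size that 25.8% of all 2383 regions had. The median absolute difference was 0.23 in regions of up to 250 bp and 0.17 in those over 500 bp. The part that region length plays in the size of a difference was not tested, and the read depth behind each level is unknown.

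Among genes with a KEGG description, the largest increase was at a gene described as endonuclease III, a DNA glycosylase of base excision repair. A region 679 bp upstream of Bhs595_001 (scaffold595, 24504 to 24773) had a level of 0.21 in the hydrated library and 0.97 at 10% RWC. Downstream of Bhs685_036, described as the RNA polymerase subunit RPABC2, which polymerases I, II and III share, the level was 0.33 hydrated and 0.94 at 10% RWC (scaffold685, 255514 to 255736). Signalling genes were among the next: upstream of Bhs225_074, a type A response regulator of cytokinin signalling, it was 0.07 and 0.53. Downstream of Bhs905_002, described as FLS2, the receptor kinase that perceives bacterial flagellin, it was 0.11 and 0.59. Upstream of Bhs539_026, an ATP-binding cassette transporter of subfamily B, it was 0.30 and 0.83.

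The largest decreases at described genes were beside a tRNA methyltransferase, a MYB factor, and genes of hormone and nitrogen metabolism. Upstream of Bhs2792_004, a tRNA (guanine-N2-)-methyltransferase, the level was 1 in the hydrated library and 0.30 at 10% RWC (scaffold2792, 84311 to 84518). Downstream of Bhs730_002, a plant MYB transcription factor, it was 0.74 and 0.06 (scaffold730, 45811 to 46235). Upstream of Bhs2057_004, gibberellin 3-beta-dioxygenase, the enzyme that makes the active gibberellins, it was 0.92 and 0.28 (scaffold2057, 69677 to 69938). Regions in flanks made up most of this group. The level upstream of Bhs119_039, nitrate reductase, which carries out the entry step of nitrate assimilation, was 0.73 hydrated and 0.15 at 10% RWC over 549 bp (scaffold119, 282182 to 282730). Upstream of Bhs355_010, described as the histone-binding protein RBBP4, it was 0.90 and 0.36 (scaffold355, 95947 to 96167). Inside Bhs342_025, described as the RNA helicase DHX36, it was 1 and 0.36.

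**Figure D2:**
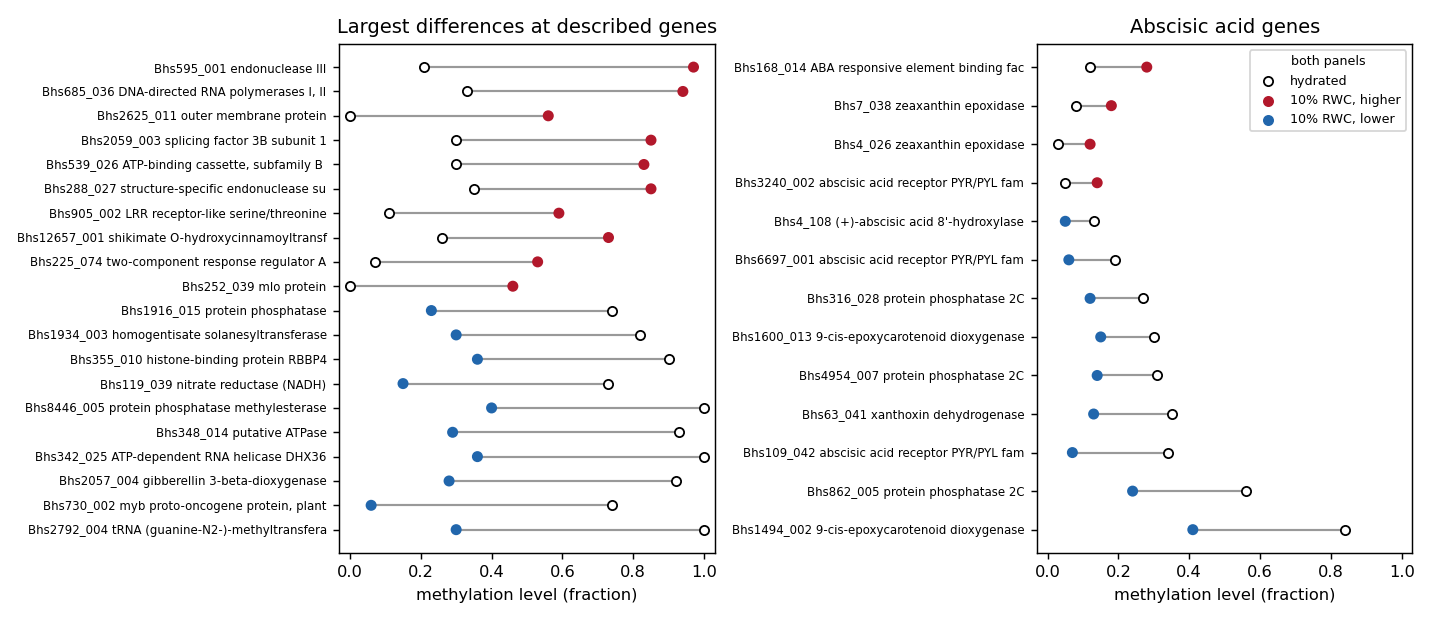
The left panel shows the methylation level (fraction) in the hydrated library (open circles) and at 10% RWC (red where higher, blue where lower) for the 10 largest increases and 10 largest decreases at genes with a KEGG description, and the right panel shows the same for the 13 genes of the abscisic acid list. Levels reach 0.97 at 10% RWC upstream of Bhs595_001 and stand at 0.30 against 1 when hydrated upstream of Bhs2792_004, and 9 of the 13 abscisic acid genes are blue.

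The position of a region relative to its gene went with the direction. In gene bodies, 715 of 1232 genes had a higher level at 10% RWC, or 58.0% (55.2 to 60.8). Upstream regions were higher at 346 of 765 genes, or 45.2% (41.7 to 48.8), and downstream regions at 397 of 807, or 49.2% (45.7 to 52.7), beside 55.8% of all genes in the 10% RWC comparison. The whole comparison had the same order by part, with 61.5% in bodies, 50.1% upstream and 52.3% downstream. Bodies and flanks also differed in level, with a median of the larger of the 2 levels of 0.29 in bodies, 0.39 upstream and 0.34 downstream. Within groups of that larger level the shares in bodies and flanks were 71.2% and 74.7% from 0.1 to under 0.2, 66.2% and 57.6% from 0.2 to under 0.3, 48.1% and 40.8% from 0.3 to under 0.5, and 42.9% and 30.3% from 0.5. Bodies thus held the larger share of increases in the 3 groups from 0.2 upwards and not in the lowest one, where the order was opposite.

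**Figure D3:**
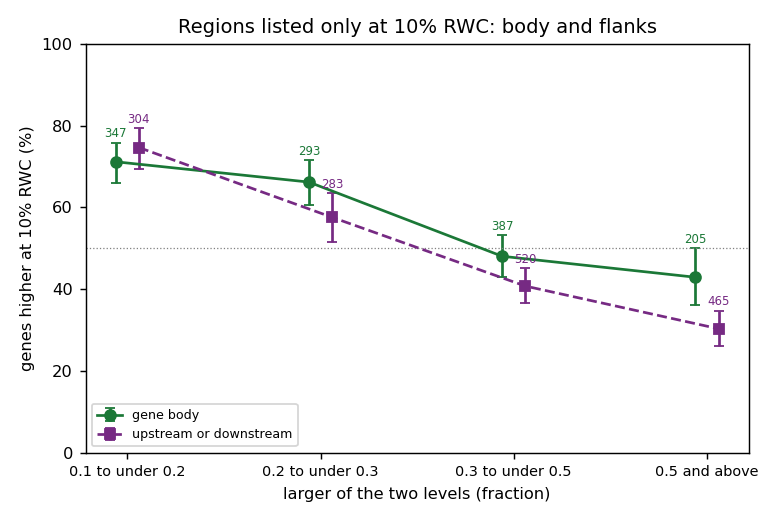
Share of genes (%) whose region was higher at 10% RWC, on the y axis, by the larger of the 2 methylation levels (fraction) on the x axis, for gene bodies (circles) and upstream or downstream regions (squares). Bars are exact 95% binomial intervals over genes, numbers are genes, and the dotted line is 50%. Both shares decline with level, from 71.2% to 42.9% in bodies and from 74.7% to 30.3% in flanks.

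By gene length, among body regions, the share higher was 52.6% (40.9 to 64.0) in genes of up to 1000 bp, 54.9% (49.9 to 59.7) from there to 3000 bp, 59.3% (55.1 to 63.3) from there to 10000 bp and 63.9% (56.4 to 70.9) in longer genes. The intervals of all these groups overlap, and no difference between them was tested. The longest of the 2383 regions, 1487 bp, lay inside Bhs68_032, described as the cell cycle protein MOB1, with a level of 0.01 hydrated and 0.14 at 10% RWC. A region of 1473 bp inside Bhs672_006, a gene described as a mixed lineage kinase domain-like protein, was listed at 0 in the hydrated library and 0.44 at 10% RWC (scaffold672, 58106 to 59578).

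Upstream regions lay a median of 924 bp from their gene and downstream regions 733 bp, and the intervals of the share higher overlapped between all distance groups within each flank. Some regions sit between neighbouring genes. Of 399 regions listed for 2 genes, 204 were higher at 10% RWC (51.1%, 46.1 to 56.1). Of 98 regions that were upstream of one gene and downstream of another, 39 were higher at 10% RWC (39.8%, 30.0 to 50.2), and of 33 regions upstream of both neighbours, 12 were (36.4%, 20.4 to 54.9). A region inside one gene and upstream of its neighbour was higher in 39 of 63 cases (61.9%, 48.8 to 73.9), one inside a gene and downstream of its neighbour in 79 of 136 (58.1%, 49.3 to 66.5), and one downstream of both in 35 of 69 (50.7%, 38.4 to 63.0). One region of 470 bp (scaffold361, 578272 to 578741) was listed for 3 genes, with a level of 0.53 in the hydrated library and 0.24 at 10% RWC. It lies upstream of Bhs361_057, described as MSH5, a meiotic mismatch repair homologue, and downstream of Bhs361_059, an endoglucanase of cell wall remodelling.

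The genes were grouped by their KEGG descriptions into 24 functional lists, of which 23 had a member. Descriptions exist for 1402 of the 2804 genes, and 281 of them rest on a weak match (e-value above 1e-20). None of the lists stood apart: in all 20 lists of at least 10 genes, the interval of the share higher held the 52.0% of all 2804 genes. The shares ran from 30.8% for abscisic acid to 68.8% for phenylpropanoid and cytochrome P450 genes. No KEGG description named a late embryogenesis abundant protein or dehydrin, the protective proteins typical of desiccation tolerance, in these regions or elsewhere in the 10% RWC comparison. The search read these descriptions only and could not find such genes among the 1402 without one, so their absence cannot be concluded. Families named inside a list below were picked after their values were seen.

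**Figure D4:**
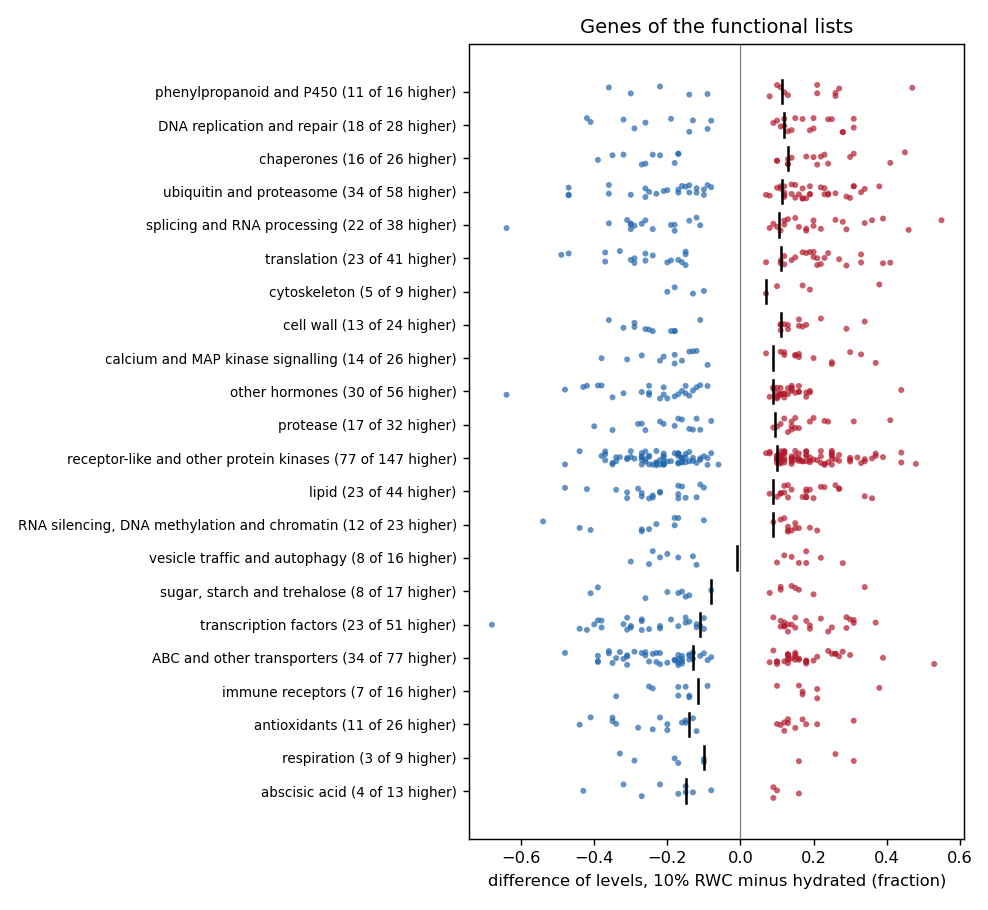
Each point is a gene of a functional list with at least 9 members, placed by the difference of its methylation level (10% RWC minus hydrated, fraction), and the black bar is the list's median. Points lie on both sides of 0 in each list shown, and the gap around 0 comes from the absence of small differences in the deposited lists.

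Abscisic acid (ABA) is the hormone that closes stomata and switches on dehydration responses. Of 13 genes in its pathway, 4 had a higher and 9 a lower level at 10% RWC (30.8% higher, 9.09 to 61.4), with a median difference of -0.15. Synthesis genes were among the lower ones. Bhs1494_002, a 9-cis-epoxycarotenoid dioxygenase, the rate-limiting enzyme of ABA synthesis, had an upstream region at 0.84 in the hydrated library and 0.41 at 10% RWC (scaffold1494, 102495 to 102845), and a further such gene, Bhs1600_013, had a body region at 0.30 and 0.15. Xanthoxin dehydrogenase, which acts after it, had a body region at 0.35 and 0.13 in Bhs63_041.

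The ABA receptors and their partners mostly shared that direction. Of 3 genes described as PYR/PYL receptors, Bhs109_042 was at 0.34 hydrated and 0.07 at 10% RWC and Bhs6697_001 at 0.19 and 0.06. The third, Bhs3240_002, was at 0.05 and 0.14 and has a weak match. All 3 genes described as protein phosphatase 2C, the family that holds the ABA pathway off, were lower, the largest difference being at Bhs862_005 with 0.56 and 0.24. The catabolic ABA 8'-hydroxylase, Bhs4_108, was at 0.13 and 0.05. The 4 higher genes, which include both zeaxanthin epoxidases and an ABA responsive element binding factor, all rest on weak matches, as do 2 of the 9 lower genes. Among the 7 genes with an e-value of 1e-20 or less, a limit added after the data had been seen, 0 were higher (interval 0 to 41.0). The share of all genes with a description was 52.6%, but it includes weak matches and is not a like comparison. The list already had the lowest share of the 20 lists, so no conclusion is drawn from this limit.

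Other hormones were divided, with 30 of 56 genes higher, and their largest difference was the gibberellin 3-beta-dioxygenase above. Of their 17 genes with a difference of at least 0.2, 1 was higher (5.88%, 0.149 to 28.7). Among all regions past that size 40.7% were higher, a share over regions that is not matched for gene part. The list is 1 of 23 that were split at this limit. The 1 higher gene was Bhs8350_002, a cytokinin trans-hydroxylase, with 0.06 in the hydrated library and 0.50 at 10% RWC downstream. In the brassinosteroid pathway, 8 of 11 genes described as the receptor BRI1 were higher (72.7%, 39.0 to 94.0). That interval holds the 52.0% of all 2804 genes. The largest difference of these 11 genes was a decrease downstream of Bhs176_027, with 0.96 hydrated and 0.48 at 10% RWC. Genes described as the BRI1-associated kinase BAK1 or as a SERK receptor kinase were higher in 13 of 23 cases (56.5%, 34.5 to 76.8). That interval too holds the 52.0%. Within this group, 4 of 10 genes described as BAK1 and 8 of 10 described as SERK1 were higher.

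Among 51 genes of transcription factor families, 23 were higher and 28 lower (45.1%, 31.1 to 59.7). The 22 body regions held 12 increases and the 29 flank regions 11, beside 58.0% of all body and 47.3% of all flank genes. Homeobox-leucine zipper genes, which direct development and some water-deficit responses, were higher in 6 of 7 body regions and in 0 of 2 flank regions, as at Bhs40_007 with 0.24 hydrated and 0.49 at 10% RWC in the body, and at Bhs68_051 with 0.47 and 0.03 upstream. The ethylene-responsive AP2/ERF group had 8 genes, all with flank regions, of which 6 were lower. Upstream of Bhs685_042 the level was 0.68 and 0.28. Its 2 higher genes, Bhs176_045 and Bhs176_046, are neighbours that share 1 region at 0.32 and 0.63.

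Other regulators of the same list were found in both directions. The 3 genes described as CONSTANS, a regulator of flowering by day length, were all lower, with 0.42 hydrated and 0.20 at 10% RWC at Bhs2398_005. The interval of their share higher, 0 to 70.8%, holds the 52.0% of all 2804 genes. Of 10 MYB genes 4 were higher, and of 6 WRKY genes 3 were. The jasmonate factor MYC2 had 5 genes, 2 of them higher, and its lower ones include Bhs730_018, a body region at 0.62 and 0.31. The cell cycle factor E2F, Bhs1834_020, was the largest increase of the list, with 0.34 and 0.71 in its body.

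Signalling kinases formed the largest list, with 77 of 147 genes higher (52.4%, 44.0 to 60.7). Among calcium and MAP kinase genes, 14 of 26 were higher. Calcium-dependent protein kinases, which decode calcium signals of drought and salt, stood at both ends: Bhs4896_002 had a body region at 0.34 in the hydrated library and 0.71 at 10% RWC, and Bhs183_009 a downstream region at 0.52 and 0.14. Immune receptors, nearly all described as RPM1, were higher in 7 of 16 genes.

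Protection against protein damage and oxidation was covered by chaperones and antioxidants. Chaperones were higher in 16 of 26 genes (61.5%, 40.6 to 79.8), with 9 of 12 in bodies and 7 of 14 in flanks, where the interval for bodies (42.8 to 94.5) holds the 58.0% of all body genes. Of 4 HSP70 genes 3 were higher, among them Bhs7881_001 with 0.27 in the hydrated library and 0.58 at 10% RWC, while HSP70 gene Bhs78_014 was at 0.17 and 0. On scaffold129, neighbouring genes differed in opposite directions: downstream of Bhs129_013, an HSP90 of the HtpG type, the level was 0.45 and 0.06 (117319 to 117530), and downstream of Bhs129_014, a DnaJ co-chaperone with a weak match, it was 0.16 and 0.61 (118458 to 118768).

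Antioxidant genes were higher in 11 of 26 cases (42.3%, 23.4 to 63.1). Among differences of at least 0.2, 2 of 12 were higher (16.7%, 2.09 to 48.4), an interval that holds the 40.7% of all regions past that size. Glutathione synthesis carried an opposite pair: 2 adjacent genes are described as glutamate-cysteine ligase, the rate-limiting enzyme, and Bhs211_054 was at 0.57 hydrated and 0.23 at 10% RWC upstream, while Bhs211_055 was at 0.29 and 0.60 in its body. Glutathione S-transferases, which conjugate glutathione to toxic products, were higher in 5 of 9 genes. Catalase, Bhs3141_006, which breaks down hydrogen peroxide, was at 0.05 and 0.23 upstream, and ascorbate peroxidase, Bhs6480_001, at 0.24 and 0.11 in its body.

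Sugars protect membranes in dry leaves, and 8 of 17 genes of sugar, starch and trehalose metabolism were higher. In bodies 7 of 11 were higher (63.6%, 30.8 to 89.1), near the 58.0% of all body genes, and in flanks 1 of 6. Trehalose-phosphate synthase Bhs4909_003 had 0.11 in the hydrated library and 0.45 at 10% RWC (scaffold4909, 33760 to 34043), and the invertase Bhs2335_005 had 0.16 and 0.36. The enzymes of sucrose synthesis were lower: sucrose-phosphate synthase had 0.29 and 0.13 at Bhs32_121 and 0.15 and 0.07 at Bhs2672_005. Fructokinases Bhs14255_001 and Bhs5639_002 were the largest decreases, with 0.62 and 0.21, and 0.67 and 0.28, both in flanks.

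Water and solute transport was the list with the most genes after the kinases: 34 of 77 were higher (44.2%, 32.8 to 55.9). Its 3 aquaporins, which conduct water across membranes, were all lower, and all through flank regions. With so few genes the interval of their share higher ran from 0 to 70.8%, which holds the 47.3% of all flank genes. The tonoplast type Bhs1940_007 was at 0.16 in the hydrated library and 0.03 at 10% RWC, the plasma membrane type Bhs189_038 at 0.49 and 0.18, and the NIP type Bhs4625_004 at 0.59 and 0.23. Peptide transporters of solute carrier family 15 were higher in 3 of 10 genes, with the largest decrease upstream of Bhs451_026, 0.92 and 0.44.

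The cell wall folds when these leaves dry, and 13 of 24 wall genes were higher, 10 of 15 in bodies and 3 of 9 in flanks. Both intervals (38.4 to 88.2 and 7.49 to 70.1) hold the shares of all body and flank genes, 58.0% and 47.3%. Polygalacturonases Bhs149_003 and Bhs2763_005, which cut pectin, were listed at 0 when hydrated and at 0.34 and 0.29 at 10% RWC in upstream regions. All 3 cellulose synthase genes were lower, as at Bhs2879_003 with 0.49 hydrated and 0.24 at 10% RWC in its body. They are too few to set them apart from the list. Lipid genes were divided, with 23 of 44 higher. Within them, 2 of 8 phospholipase C and D genes, which produce lipid signals under water deficit, were higher, and phospholipase C gene Bhs603_019 was at 0.70 and 0.22 upstream.

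The machinery of methylation and chromatin was itself among these genes, with 12 of 23 higher (52.2%, 30.6 to 73.2). Among differences of at least 0.2, 1 of 8 genes was higher (12.5%, 0.316 to 52.7). That interval holds the 40.7% of all regions past that size. The list's largest differences were decreases, upstream of RBBP4 as given above and upstream of Bhs6088_007. The latter, described as the histone methyltransferase SETD2 with a weak match, was at 0.44 hydrated and 0 at 10% RWC. Bhs5472_001, a DNA (cytosine-5-)-methyltransferase, carried 0.03 in its body when hydrated and 0.24 at 10% RWC (scaffold5472, 23905 to 24429). Argonaute genes, whose proteins bind small RNAs, were higher at Bhs1483_003 with 0.03 and 0.15 and at Bhs5_092 with 0.07 and 0.22. The Dicer genes Bhs1722_006 and Bhs1722_007, which make small RNAs, share 1 region at 0.28 and 0.10. Chromatin remodellers of the SWI/SNF class were higher in 2 of 4 genes.

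DNA replication and repair genes were higher in 18 of 28 cases (64.3%, 44.1 to 81.4) and in 13 of 19 body regions (68.4%, 43.4 to 87.4, beside 58.0% of all body genes). Topoisomerase III, which untangles recombining strands, was higher in 4 of 5 genes, with 0.29 in the hydrated library and 0.60 at 10% RWC at Bhs1215_002. The meiotic SPO11, Bhs211_042, was at 0.06 and 0.34 in its body. This list holds neither the endonuclease III gene above nor the genes described as the endonuclease subunit SLX1. SLX1 was the most frequent named description of all and belonged to 26 genes in 26 regions. Of these, 17 were higher (65.4%, 44.3 to 82.8), an interval that holds the 52.0% of all 2804 genes. Proteasome genes were higher in 12 of 17 cases (70.6%, 44.0 to 89.7) and E3 ubiquitin ligases in 12 of 24. The ubiquitin and proteasome list that holds both had 34 of 58 higher (58.6%, 44.9 to 71.4), beside 52.0% of all 2804 genes. With an e-value of 1e-20 or less, 16 of its 32 genes were higher. Photosynthesis had 3 genes, of 7 in the whole comparison: light-harvesting genes Bhs6817_001 and Bhs4601_002 were higher (0.05 and 0.13, 0.12 and 0.26) and the oxygen-evolving protein Bhs1317_004 was lower (0.45 and 0.20).

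Absence from the 70% RWC list concerns a region, not a gene, and both lists give each gene only once. Of the 2804 genes, 410 (14.6%) were listed at 70% RWC for another region, and the 70% RWC level of the regions described above is not given in the files. At RBBP4, Bhs355_010, the upstream region at 0.90 hydrated and 0.36 at 10% RWC stood beside a body region at 0.15 hydrated and 0.31 at 70% RWC. At the MLO gene Bhs252_039, whose family is known for powdery mildew susceptibility, the upstream region was at 0 hydrated and 0.46 at 10% RWC, and a body region at 0.41 hydrated and 0.09 at 70% RWC. Both fructokinases above had a body region with a higher level at 70% RWC, 0.28 and 0.57 in Bhs14255_001 and 0.36 and 0.72 in Bhs5639_002. In the undescribed Bhs963_016, neighbouring body regions were at 1 hydrated and 0.36 at 10% RWC and at 0 hydrated and 0.70 at 70% RWC. The hydrated library is the same in both comparisons, and no relation between them is drawn from these values.

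A region 1 bp from a 70% RWC region was kept and one that shared 1 bp was removed. Just inside, Bhs6102_003 was at 0.05 hydrated and 0.20 at 10% RWC, 1 bp from a region at 0.03 hydrated and 0.26 at 70% RWC. Bhs685_077 was at 0.57 and 0.29, 2 bp from a region at 0.29 hydrated and 0.63 at 70% RWC. Just outside, Bhs106_070 was at 0.22 and 0.44, sharing 1 bp with a region at 0.23 hydrated and 0.50 at 70% RWC. Such cases were few: 789 of the 2383 regions were on a scaffold with no 70% RWC region, and the other 1594 lay a median of 20460 bp from the nearest, 97 of them within 500 bp.

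A smaller share of the 2383 regions was higher at 10% RWC than of the 710 in this comparison that overlapped a 70% RWC region. The shares were 52.1% against 68.6% (65.0 to 72.0), a difference of -16.5 percentage points (normal 95% interval -20.4 to -12.5, counting of regions only). Both lists rest on the same hydrated library, so a region's hydrated level enters both its overlap and its direction. The split is therefore not independent of direction, which the interval does not cover. The overlapping regions were longer, with a median of 384 bp against 320 bp, and had a median hydrated level of 0.16 against 0.20. The gap depended on level. Where the larger level was 0.1 to under 0.2 both shares were 71.7%, and from there they parted to 61.9% against 79.5%, 44.8% against 70.7%, and 34.6% against 52.7% at 0.5 and above. The part that length and level play in the difference was not tested beyond these groups.

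**Figure D5:**
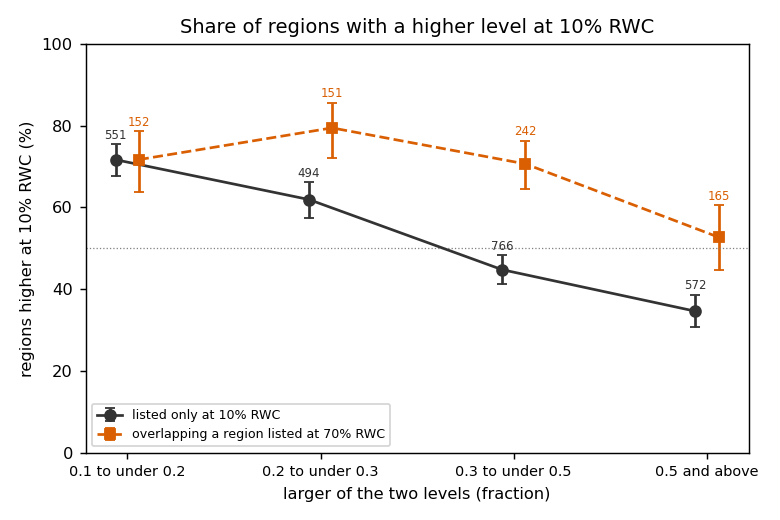
Share of regions (%) that were higher at 10% RWC, on the y axis, by the larger of the 2 methylation levels (fraction) on the x axis, for the 2383 regions listed only at 10% RWC (circles) and the 710 that overlap a region listed at 70% RWC (squares). Bars are exact 95% binomial intervals over regions and numbers are regions. The shares start together at 71.7% and end at 34.6% and 52.7%.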

How the data were processed

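Per the labels' protocols, leaf DNA was sonicated, ligated to methylated adaptors, bisulfite converted and amplified, with 3 libraries, 1 per condition. Coverage, genome build, aligner, caller and sequence contexts: not given in the sources used here. Each deposited level is a fraction with 2 decimals, a mean per region and library per the file headers. Other deposited columns hold positions, lengths, the part of the gene, KEGG and Gene Ontology text. In the values, the larger level was at least 0.1, the ratio of levels at least 1.86 and the length at least 201 bp, so smaller differences are not in the lists.

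Regions were counted once, and once per gene for gene parts and lists. Overlap meant 1 bp or more on the same scaffold. Shares have exact 95% binomial (Clopper-Pearson) intervals, which cover counting only and treat neighbouring regions as independent. No p-value was computed. The overlap step was tested on simulated data. Depth is unknown, so no interval of a level can be given. The software was Python 3.11.15 with scipy 1.17.1, numpy 2.4.6, pandas 2.3.3 and matplotlib 3.10.9.

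The members and lists were chosen with earlier results of these data known, and keyword patterns were trimmed for false matches after the descriptions were read. Named genes were the 10 largest differences per direction, overall and with a KEGG description, the 2 largest per list and direction, the 5 largest per direction with another 70% RWC region, those nearest to the overlap limit, the 3 longest regions per direction and the 3 largest listed for 3 genes; some were left out for brevity. Other genes and families named within lists were chosen after their values were seen. Alternatives were minimum differences of 0.2 and 0.3, other overlap rules, and those named in the closing section. No genome sequence was used, so no sequence is shown.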

Additional observations from a re-analysis of the deposited data

How the results depend on the processing

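A minimum difference was the choice that mattered. At 0.2 or more the share of regions higher at 10% RWC was 40.7% and at 0.3 or more 36.6%, so the majority reversed, and the share in gene bodies did too, to 46.9% and 46.0%. The upstream share was then 35.8% and 30.0%, and the downstream share 36.8% and 36.0%. The median differences were 0.27 and 0.36 for higher and -0.29 and -0.36 for lower regions, which the limit itself raises. At 0.2 the difference from the overlapping regions was -21.9 points, the share in the group of 0.2 to under 0.3 was 69.9%, and 7 lists had more higher than lower genes, where 15 did without the limit. A region whose larger level is under 0.2 cannot differ by 0.2, so that limit removed all 551 such regions, of which 71.7% were higher. From 0.2 to under 0.3 it kept 83 of 494 regions. In the group of 0.3 to under 0.5 the share was 42.5%, beside 44.8% without the limit. From 0.5 it stayed at 34.6%. What else plays a part in the turn of the shares was not tested.

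The other settings, each tried on the results it applies to, kept the shares and medians within their intervals, apart from the abscisic acid list under the e-value limit given above: genes counted once, 1 region per scaffold, regions listed for 1 gene, weighting by length, reciprocal 50% overlap, removal within 500 bp, removal of regions whose genes are listed at 70% RWC, and lists drawn also from Gene Ontology terms. Log2 ratios with 0.01 added, a scale of its own, kept both directions, with medians of 1.37 and -1.19, but put the larger change at the higher regions. Regions of at least 300 bp and leaving out levels of exactly 0 or 1, both chosen after seeing the data, also kept the overall share within its interval. No paired analysis was possible because each condition has 1 library and the labels carry no replicate numbers. Unknown depth, sequence context and cytosine number limit the precision of every level.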

Other observations

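The most frequent Gene Ontology process among these genes was protein modification, with 53 of 94 genes higher at 10% RWC (56.4%), beside 52.0% of all 2804 genes. Response to stress had 27 of 50 higher (54.0%), transport 20 of 42 (47.6%) and response to hormone stimulus 26 of 40 (65.0%). Reproductive development had 28 of 43 higher (65.1%). These terms were picked after their values were seen and have no test.

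The 2383 regions lay on 1279 scaffolds, 892 of which held a single region. Scaffold107 held the most, 26, of which 10 were higher. Neighbouring regions on a scaffold had the same direction in 4 of 4 pairs within 500 bp, in 11 of 25 pairs farther apart up to 2000 bp and in 74 of 148 from there to 10000 bp. A level of exactly 0 was listed for 76 regions in the hydrated library and for 33 at 10% RWC.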
